A study of Drosophila melanogaster with 2 samples.

Results

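Binding of the transcription factor foxo was examined at 10 genes of the antioxidant defence of Drosophila melanogaster: catalase (Cat), the superoxide dismutases Sod1, Sod2 and Sod3, the peroxiredoxin Jafrac1, the thioredoxin Trx-2, both subunits of glutamate-cysteine ligase (Gclc and Gclm), and the regulators cnc and Keap1. The genes were chosen as a functional group with earlier results of these data known, and all 10 of the 10 names were found among the 13945 protein-coding genes of the annotation, Jafrac1 under its current symbol Prx2 and Trx-2 under Trx2. A binding region belonged to a gene when its summit, the point of highest signal, lay in the gene body or within 5000 bp of it. By this rule 6 of the 1427 peaks of the thresholded list lay at 4 of the 10 genes, namely Cat, Jafrac1, cnc and Keap1. The measurement was chromatin immunoprecipitation followed by sequencing (ChIP-seq) in whole wandering larvae of the third instar, males and females pooled. Per the labels, the larvae came from a transgenic line that carried foxo with an eGFP tag at its C-terminus, and an antibody against GFP was used, although another label names foxo as the antibody target. The data comprised 2 biological replicates, numbered 5 and 6, of a single group, so binding was compared between sites and between genes and not between conditions. Whole larvae mix all tissues, so a region bound in few cells cannot be told apart from one bound weakly in many.

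Superoxide dismutases turn superoxide into hydrogen peroxide, which catalase and the peroxiredoxins remove, the peroxiredoxins at the expense of thioredoxin. Glutamate-cysteine ligase makes the first intermediate of glutathione synthesis. The transcription factor cnc, the fly relative of mammalian Nrf2, activates many detoxification and antioxidant genes through antioxidant response elements and is held back by Keap1, whose own gene is among its targets. Insulin signalling keeps foxo out of the nucleus, and mammalian FoxO factors are known to activate the genes of catalase and of the manganese superoxide dismutase.

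The 6 thresholded peaks carry the binding described here, and the reference sequence of the RefSeq Release 6 assembly (dm6) is shown for each within 100 bp to either side of the summit, 5′ to 3′ on the strand of the gene. Capitals mark matches to any of 5 sequences searched on both strands: TGTTTAC, the core bound by forkhead factors such as foxo; TGANNNNGC, a loose form of the antioxidant response element; TGANTCA, the core bound by AP-1; GAGAGAG, the repeat bound by GAGA factor; and TATCGATA, the element bound by BEAF-32 and DREF. TGANTCA and TGANNNNGC can share letters.
Cat, chr3L:18822802-18823002, plus strand, GAGAGAG in capitals: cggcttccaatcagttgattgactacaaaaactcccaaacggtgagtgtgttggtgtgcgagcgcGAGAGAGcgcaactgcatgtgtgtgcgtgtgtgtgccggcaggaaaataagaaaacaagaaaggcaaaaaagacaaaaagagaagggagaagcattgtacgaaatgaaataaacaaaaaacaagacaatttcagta
Jafrac1, chrX:13332114-13332314, plus strand, TGANTCA in capitals: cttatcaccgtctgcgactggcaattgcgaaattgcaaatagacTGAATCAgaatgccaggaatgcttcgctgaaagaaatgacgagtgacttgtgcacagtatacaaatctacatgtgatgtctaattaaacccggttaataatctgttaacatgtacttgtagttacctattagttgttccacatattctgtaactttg
cnc, downstream peak, chr3R:23189955-23190155, minus strand, TGANNNNGC in capitals: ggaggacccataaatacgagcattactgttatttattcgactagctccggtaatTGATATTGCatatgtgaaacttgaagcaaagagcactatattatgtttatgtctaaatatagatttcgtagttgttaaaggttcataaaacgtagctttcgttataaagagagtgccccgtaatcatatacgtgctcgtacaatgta
cnc, upstream peak, chr3R:23223623-23223823, minus strand, TGANTCA in capitals: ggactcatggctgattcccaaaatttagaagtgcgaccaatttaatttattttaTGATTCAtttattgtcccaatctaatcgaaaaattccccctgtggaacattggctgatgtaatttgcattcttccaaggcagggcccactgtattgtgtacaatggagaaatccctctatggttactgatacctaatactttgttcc
Keap1, peak of higher signal, chr3R:17080655-17080855, minus strand, TGANNNNGC in capitals: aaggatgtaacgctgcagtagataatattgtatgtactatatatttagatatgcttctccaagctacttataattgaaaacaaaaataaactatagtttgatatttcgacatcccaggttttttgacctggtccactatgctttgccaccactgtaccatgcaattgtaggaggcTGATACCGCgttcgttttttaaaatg
Keap1, peak of lower signal, chr3R:17080858-17081058, minus strand, TGANNNNGC then TGANTCA in capitals: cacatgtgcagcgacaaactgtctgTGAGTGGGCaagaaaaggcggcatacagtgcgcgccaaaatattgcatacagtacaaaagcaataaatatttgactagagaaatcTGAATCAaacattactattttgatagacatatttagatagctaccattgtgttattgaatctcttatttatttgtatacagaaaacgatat

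The forkhead string TGTTTAC was found in 0 of the 6 windows, against 6.52% of the windows of all 1427 peaks. Other forms of the forkhead core were not searched, so this count does not show whether the windows lacked them. TGANNNNGC was in 3 of the 6, against 24.2% of all peaks. These windows included those of both Keap1 peaks, which lie side by side at the same locus. TGANTCA was in 3 of the 6, against 4.98% of all peaks (95% exact Clopper-Pearson interval 3.91 to 6.23%, counting error only). GAGAGAG was in 1 of the 6, against 13.2%, and TATCGATA in 0 of the 6, against 2.38%. The TGANTCA matches all had A or T at the centre, so none was the stricter AP-1 core with G or C there. The TGANTCA of the lower Keap1 peak was the match nearest to a summit, at 13 bp. The other matches lay 32 bp (Cat), 53 bp (Jafrac1), 42 and 43 bp (cnc downstream and upstream peak) and 71 and 79 bp (TGANNNNGC of the lower and the higher Keap1 peak) from their summits. With 6 windows these counts are small. Within 50 bp of the summits TGANNNNGC was left in 1 window, against 150 of all 1427 peaks at that distance. TGANTCA was left in 2 windows, against 2.73% of all peaks at that distance. None of the TGANNNNGC matches in the 6 windows had the C directly after TGA of the stricter antioxidant response element. A match is a string of letters and was not tested as a binding site.

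The thresholded list was made by the authors with the irreproducible discovery rate (IDR), which sets a cut-off from how alike replicates rank regions. It held exactly the 1427 regions of highest signal of the pooled list, whose signals ran from 69.0 to 745 (median 90.6). The pooled list and each replicate's own relaxed list held 30000 regions each, background included. Regions with a q-value of at most 0.01 numbered 3553 in the pooled list, 1061 in replicate 5 and 6870 in replicate 6. The unit of the authors' signal is not stated and read depth was unknown, so lists were set beside each other by rank, rank 1 having the highest signal. A replicate region matched a pooled one when the summits were within 150 bp, the highest such region being taken, and it was called high when it was among the first 1427 of its list, which ended at a signal of 34.0 in replicate 5 and 42.3 in replicate 6.

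An IDR summit in the body or within 5000 bp was present at 4 of the 10 antioxidant genes and at 20.0% of all protein-coding genes (interval 19.3 to 20.7%). Among the 10240 genes whose window length was within the range of the members, 21.7% had one. Within 1000 bp of an own transcription start site (TSS), an IDR summit was present at 3 of the 10 genes (Cat, cnc and Keap1) and at 7.71% of all protein-coding genes. In the replicates' own lists, a high region was at 4 of 10 members in replicate 5, against 20.5% of all genes, and at 5 of 10 in replicate 6, against 19.5%. The gene added in replicate 6 was Sod3. A pooled relaxed summit of any rank lay within 1000 bp of a TSS at 10 of 10 members and at 58.3% of all genes. The highest promoter signal had a median of 44.5 over the members and of 17.9 over all protein-coding genes. These shares describe the members without a test.

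**Figure D1:**
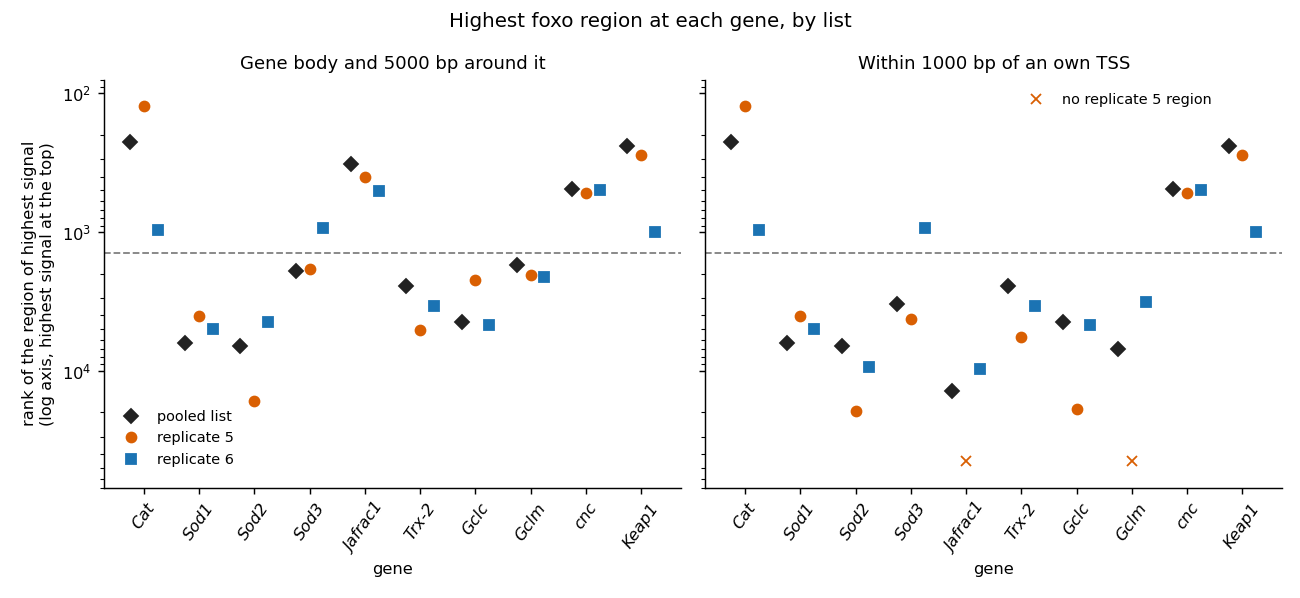
Rank of the region of highest authors' signal at each of the 10 genes in the pooled list and in replicates 5 and 6 (log axis, rank 1 uppermost), in the whole gene window on the left and within 1000 bp of an own TSS on the right. The dashed line is rank 1427, the size of the IDR list. Cat, cnc and Keap1 lie above it in all 3 lists in both panels, Jafrac1 only in the left one, and the crosses mark the 2 genes with no replicate 5 region near a TSS.

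Catalase, the enzyme that splits hydrogen peroxide into water and oxygen, had the highest pooled signal of the 10 genes. Cat (FBgn0000261) runs on the plus strand at chr3L:18822604-18828188 with a single annotated TSS. Its IDR peak, chr3L:18822712-18823091, had its summit 298 bp downstream of that TSS, in an intron. The signal at the Cat peak was 138.5 in the pooled list (rank 226), 93.8 in replicate 5 (rank 124) and 48.8 in replicate 6 (rank 976). The Cat summits of the replicates were each 3 bp from the pooled one, so the position was the same while the rank was higher in replicate 5 than in replicate 6. Only 1.46% of protein-coding genes had a promoter signal as high as Cat in the pooled list, 0.825% in replicate 5 and 5.21% in replicate 6. No other protein-coding gene had a TSS within 1000 bp of the Cat summit, and the nearest TSS of another gene, that of the telomere-capping gene HipHop, was 1729 bp away. The window of Cat held 15 further pooled relaxed regions. The next in signal was at 49.0 (rank 3123), 1839 bp upstream of the Cat TSS, with 27.3 (rank 2446) in replicate 5 and 29.7 (rank 3359) in replicate 6. It sat at the start of neighbouring genes, 90 bp from the TSS of CG14073 and 406 bp from that of HipHop.

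The 3 superoxide dismutases had no IDR peak in their windows, and in the pooled list 16.3 to 28.2% of protein-coding genes had a promoter signal as high as theirs. Sod1, the cytosolic copper-zinc enzyme (FBgn0003462, minus strand, chr3L:11112281-11113740), had its highest pooled region 104 bp upstream of the TSS with a signal of 34.7 (rank 6363). The highest Sod1 signal was 22.3 in replicate 5 (rank 4064), 515 bp downstream of the TSS, and 24.5 in replicate 6 (rank 5007), 29 bp upstream. The replicates therefore placed their highest Sod1 region at different points, and 27.6% of protein-coding genes had a promoter signal as high in the pooled list. Beyond the 5000 bp rule, 2 IDR peaks lay at 5037 bp (signal 77.1, rank 1076) and 6759 bp (signal 94.9, rank 624) from the Sod1 gene body.

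Sod2, the mitochondrial manganese enzyme (FBgn0010213, minus strand, chr2R:16772785-16773915), had its highest pooled region 21 bp upstream of the TSS with a signal of 34.0 (rank 6618). Near the Sod2 TSS replicate 5 had 11.3 (rank 19532) and replicate 6 had 17.1 (rank 9407). All 3 lists thus held a region there, low in each. The summit of the pooled region was also 310 bp from the TSS of Arp53D, an actin-related gene, so it cannot be given to Sod2 alone. The highest replicate 6 region of the window, 25.8 (rank 4491) at 1275 bp from the Sod2 TSS, was a promoter region of the kinesin gene unc-104, 31 bp from its TSS. Its pooled counterpart had 30.7 (rank 7967) at 15 bp from the unc-104 TSS. A promoter signal as high as that of Sod2 was found at 28.2% of all protein-coding genes.

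Sod3, the extracellular superoxide dismutase (FBgn0033631, minus strand, chr2R:11380347-11384114), gave the least uniform picture of the 3. Its promoter region had a pooled signal of 47.8 (rank 3299) at 328 bp upstream of the TSS. The replicate regions that matched it had 14.9 in replicate 5 (rank 10612) and 15.4 in replicate 6 (rank 11150). Within 1000 bp of the TSS, the highest Sod3 region had 22.0 in replicate 5 (rank 4233), 342 bp downstream, and 49.6 in replicate 6 (rank 935), 176 bp upstream. Replicate 6 alone placed the Sod3 promoter among its high regions, and replicate 5 did not have a matching summit at that point. The highest pooled signal in the window of Sod3 was 61.1 (rank 1926), 4546 bp upstream, with 30.5 in replicate 5 (rank 1840) and 37.0 in replicate 6 (rank 2025). That region was 119 bp downstream of the TSS of CG30022 and in its 5′ UTR, and it lay as well in an intron of sprt, so it was nearer to a neighbour than to Sod3.

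**Figure D2:**
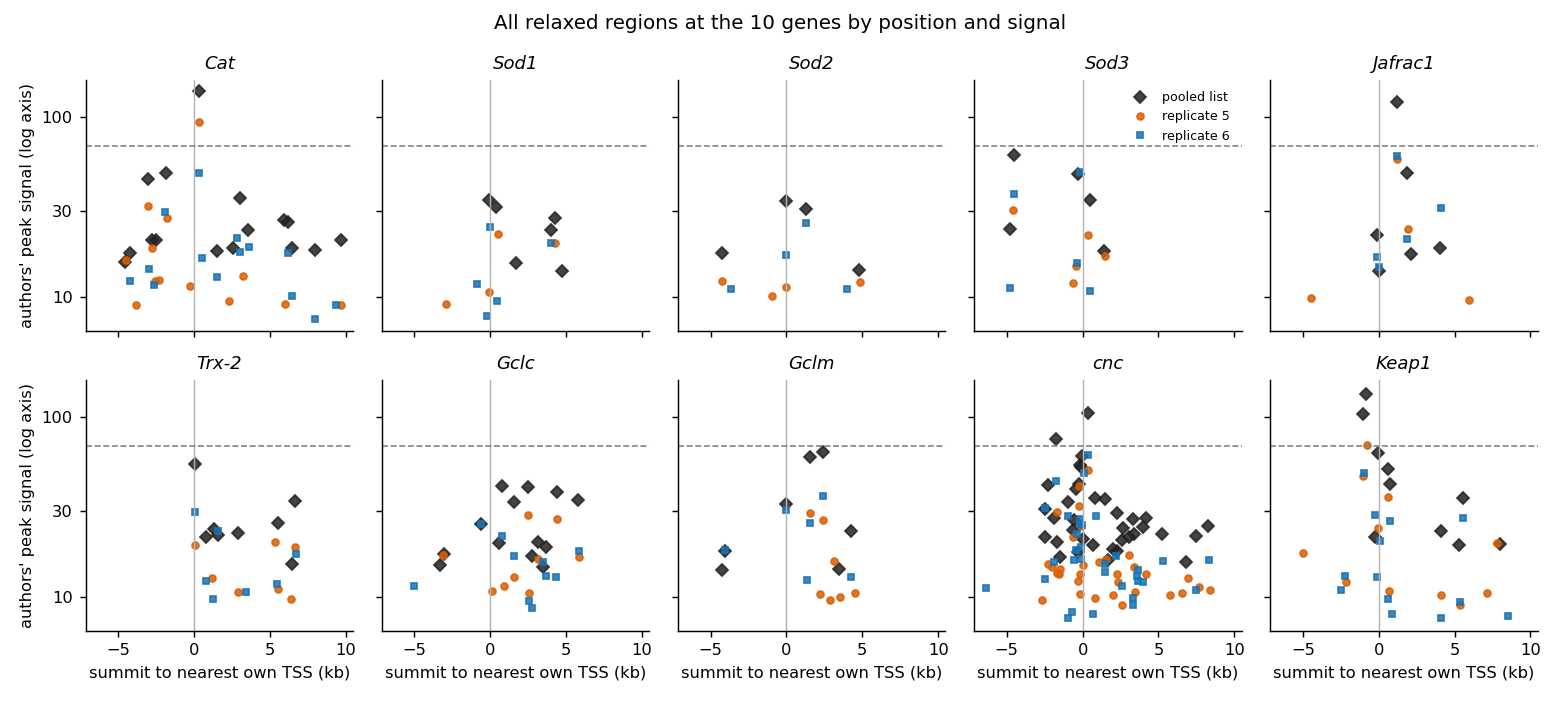
Every relaxed region in the windows of the 10 genes in the pooled list and in replicates 5 and 6, by the distance of its summit from the nearest own TSS in kb (negative upstream) and by the authors' signal (log axis). The dashed line is the lowest signal of the IDR list, 69.0, and applies to the pooled list alone. The peaks of Cat, cnc and Keap1 above the line sit within 2 kb of an own TSS, as does that of Jafrac1, while the pooled regions of the other 6 genes stay below it.

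Jafrac1, a cytosolic peroxiredoxin that reduces peroxides (FBgn0040309, plus strand, chrX:13329824-13331994), had a high peak behind the gene and none at its start sites. The IDR peak, chrX:13332024-13332403, had its summit 220 bp beyond the 3′ end, 1195 bp from the nearest of the 4 own TSSs. The signal there was 121 in the pooled list (rank 323), 58.4 in replicate 5 (rank 403) and 60.9 in replicate 6 (rank 504). Replicate summits were 1 and 5 bp from the pooled summit of Jafrac1, and the ranks of both replicates were close. The summit lay 160 bp upstream of the TSS of the long non-coding RNA gene lncRNA:CR32636, nearer to it than to any Jafrac1 TSS. At the Jafrac1 TSSs the highest pooled signal was 22.2 (rank 14054), 106 bp upstream, with 16.7 in replicate 6 (rank 9806) and no region within 1000 bp in replicate 5. A promoter signal as high was found at 42.9% of protein-coding genes, whereas only 5.84% had a signal as high as that of Jafrac1 in the whole window.

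Trx-2, the thioredoxin that returns electrons to peroxiredoxins (FBgn0040070, plus strand, chr2L:9613166-9616404), had a region on its start site below the IDR cut-off. The pooled signal was 54.9 (rank 2436) at 44 bp downstream of the TSS of Trx2-RA, in the 5′ UTR. In replicate 5 the Trx-2 region had 19.4 (rank 5717) and in replicate 6 it had 29.5 (rank 3408). All 3 lists had a summit within 80 bp downstream of this Trx-2 TSS, and neither replicate reached its high regions. It was the highest pooled promoter signal among the 7 members with no IDR peak near a TSS, and 12.8% of protein-coding genes had one as high.

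The subunits of glutamate-cysteine ligase differed in where their highest regions lay. Gclc, the catalytic subunit (FBgn0040319, minus strand, chrX:8102181-8116147, 3 TSSs), had its highest pooled signal of 41.3 (rank 4482) in an intron, 772 bp downstream of a TSS. At that Gclc region replicate 5 had 11.5 (rank 19038) and replicate 6 had 21.8 (rank 6258). The highest Gclc regions of the replicates were elsewhere, at 2497 bp from a TSS with 28.3 in replicate 5 (rank 2211) and at 597 bp with 25.4 in replicate 6 (rank 4659). No Gclc region was thus the highest in more than one list.

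Gclm, the modifier subunit (FBgn0046114, minus strand, chr3R:22685006-22686510), came closest to the cut-off among the genes with no IDR peak. Its highest pooled region, chr3R:22683938-22684317, had a signal of 64.0 (rank 1729) with the summit 878 bp beyond the 3′ end and outside any other protein-coding gene. In replicate 5 that Gclm region had 26.9 (rank 2536) and in replicate 6 it had 36.2 (rank 2128). The region beside it, 25 bp beyond the 3′ end of Gclm, had 59.4 in the pooled list (rank 2040), 29.2 in replicate 5 (rank 2051) and 25.6 in replicate 6 (rank 4556). Both lay behind the gene in all 3 lists, as at Jafrac1. The promoter region of Gclm, 60 bp upstream of the TSS, had 33.0 in the pooled list (rank 6993) and 30.3 in replicate 6 (rank 3193), and replicate 5 had no region within 1000 bp. Its pooled summit was also 279 bp from the TSS of CG17625, so it cannot be given to Gclm alone. The window around the 878 bp summit is shown because it held a TGANNNNGC match, in capitals and 23 bp from the summit. That match was on the strand opposite to the gene and had no C directly after TGA. TGANNNNGC was within 100 bp of 3 of the 10 highest pooled summits of the genes, against 25.3% of all pooled summits. The highest region of Trx-2 held TGANTCA with G at the centre and that of Gclc held GAGAGAG. Those of the superoxide dismutases held none of the 5 sequences.
Gclm, chr3R:22684028-22684228, minus strand: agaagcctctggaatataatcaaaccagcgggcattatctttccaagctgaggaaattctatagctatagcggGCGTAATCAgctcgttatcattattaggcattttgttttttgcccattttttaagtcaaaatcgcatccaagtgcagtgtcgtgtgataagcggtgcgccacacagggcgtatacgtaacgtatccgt

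The gene of the transcription factor cnc (FBgn0262975, minus strand, chr3R:23185580-23226711), the longest of the 10 with 10 TSSs, had 2 IDR peaks 33668 bp apart. The downstream one, chr3R:23189865-23190244, had its summit 364 bp downstream of the TSS of cnc-RE, in an intron. Its signal was 105 in the pooled list (rank 494), 50.8 in replicate 5 (rank 526) and 61.0 in replicate 6 (rank 501). The 3 ranks lay closer together than at any other of the 6 peaks, and the replicate summits were 1 and 11 bp from the pooled cnc summit. The same summit was 775 bp upstream of the TSS of cnc-RD and cnc-RH and 926 bp upstream of that of cnc-RA. A promoter signal as high as this was found at 2.88% of protein-coding genes.

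The upstream cnc peak, chr3R:23223533-23223912, lay in an intron 1762 bp upstream of the TSS shared by cnc-RC, cnc-RJ, cnc-RK and cnc-RO. Its signal was 75.2 in the pooled list (rank 1155), 29.8 in replicate 5 (rank 1959) and 43.7 in replicate 6 (rank 1314). It was a high region in replicate 6 and not in replicate 5, where its q-value was 0.0385. At that shared TSS, 46 bp upstream, cnc had a pooled signal of 60.4 (rank 1966). The matching summits of the replicates lay on opposite sides of it and 285 bp apart, so they did not match each other: replicate 5 had 10.4 (rank 23064) at 189 bp upstream of the TSS, and replicate 6 had 48.8 (rank 980) at 96 bp downstream. A lower cnc region of replicate 6 was nearer to the pooled summit, with 16.3 (rank 10134) at 118 bp upstream of the TSS. Another difference was seen 231 bp upstream of the TSS of cnc-RE, where the pooled signal of 42.2 (rank 4273) went with 41.4 in replicate 5 (rank 879) and with no region in replicate 6. In all, cnc had 36 pooled relaxed regions, of which 13 lay within 1000 bp of an own TSS, and its window of 51132 bp was the longest of the 10. At 9995 bp from the cnc gene body, outside the rule, was a further IDR peak with a signal of 104.6 (rank 499).

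Keap1, the adaptor protein that restrains cnc (FBgn0038475, minus strand, chr3R:17073942-17079945, 2 TSSs), had 2 IDR peaks that overlapped. The higher, chr3R:17080565-17080944, had its summit 810 bp upstream of the nearer Keap1 TSS, and the lower, chr3R:17080768-17081147, had its summit 1013 bp upstream. The summits were 203 bp apart and the intervals shared 177 bp. The higher Keap1 peak had a signal of 134 in the pooled list (rank 240) and 69.3 in replicate 5 (rank 278), and no summit of replicate 6 was within 150 bp. The lower had 103 in the pooled list (rank 521), 46.8 in replicate 5 (rank 646) and 48.4 in replicate 6 (rank 999). The replicate 6 summit of rank 999 was 27 bp from the lower and 176 bp from the higher Keap1 summit, so replicate 5 resolved a pair of summits where replicate 6 had 1.

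Both Keap1 peaks were shared with a neighbour. They lay in an intron of kuk, which encodes the nuclear envelope protein Kugelkern, 511 and 714 bp downstream of its TSS, so both summits were nearer to the start of kuk than to that of Keap1. On the Keap1 TSS itself, 37 bp upstream and 262 bp from the TSS of kuk, the pooled signal was 63.2 (rank 1772), with 24.3 in replicate 5 (rank 3296) and no replicate 6 summit within 150 bp. Replicate 6 instead had 28.3 (rank 3686) at 217 bp upstream. Inside Keap1, 584 bp downstream of the TSS of Keap1-RB, the pooled signal was 51.2 (rank 2828), with 35.9 in replicate 5 (rank 1231) and 9.72 in replicate 6 (rank 21413). At 8701 bp from the Keap1 gene body, outside the rule, was a further IDR peak with a signal of 163 (rank 150). The peaks outside the rule at Sod1, cnc and Keap1 were not assigned to any gene.

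**Figure D3:**
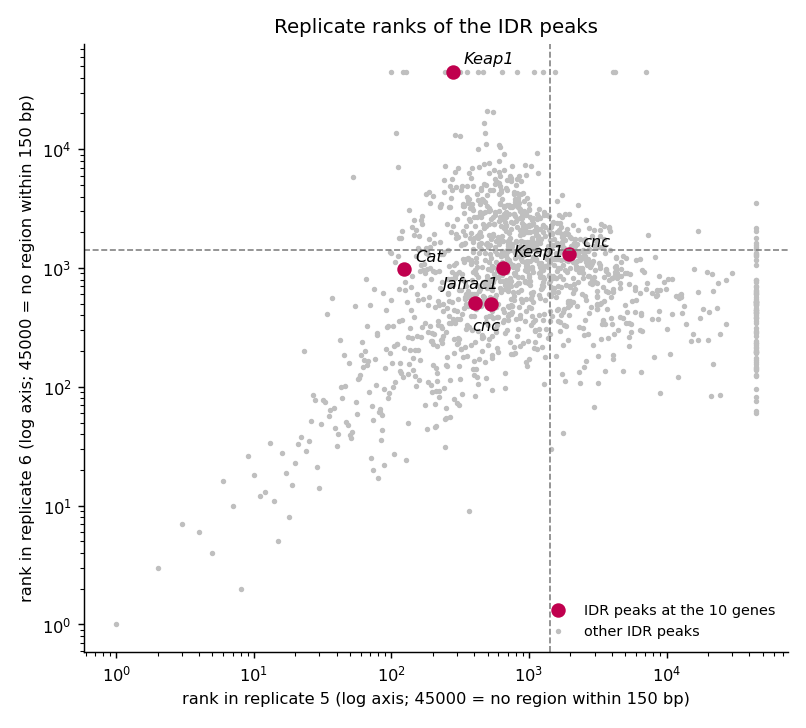
Ranks of the 1427 IDR peaks in replicate 5 and replicate 6 (log axes, peaks with no region within 150 bp drawn at 45000), with the 6 peaks at Cat, Jafrac1, cnc and Keap1 named and the others in grey. The dashed lines are rank 1427 in each replicate. Of the 6 peaks, 4 lie below both lines, 1 cnc peak lies to the right of the replicate 5 line and 1 Keap1 peak has no replicate 6 region.

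Of the 6 peaks at members, 4 were high in both replicates (66.7%), against 626 of all 1427 IDR peaks (43.9%). They were high in replicate 5 at 5 of 6, against 977 of 1427, and in replicate 6 at 5 of 6, against 987 of 1427. The 4 were those of Cat and Jafrac1, the downstream peak of cnc and the lower peak of Keap1. Each of the 4 genes thus had a peak that was high in both replicates.

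**Figure D4:**
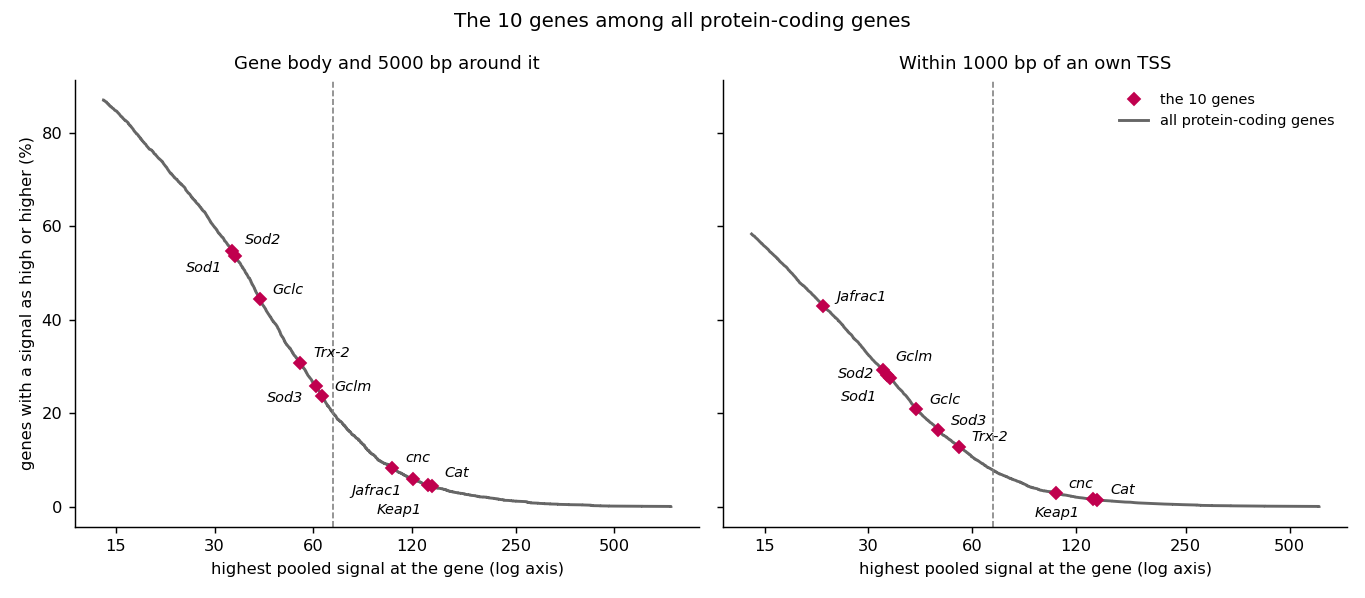
Percentage of all 13945 protein-coding genes whose highest pooled signal was at least the value on the horizontal axis (log axis), for the whole gene window on the left and within 1000 bp of a TSS on the right, with the 10 genes marked. The dashed line is the lowest IDR signal, 69.0. The 4 genes right of it in the left panel sit among the highest 4.37 to 8.26% of genes, while Sod1 and Sod2 sit near the middle at 53.6 and 54.7%.

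In order of the highest pooled signal in the window, the genes ran from Cat, Keap1, Jafrac1 and cnc through Gclm, Sod3, Trx-2 and Gclc to Sod1 and Sod2. The share of protein-coding genes with a signal as high was 4.37% at Cat, 4.52% at Keap1, 5.84% at Jafrac1 and 8.26% at cnc. It was 23.6% at Gclm, 25.8% at Sod3, 30.8% at Trx-2, 44.4% at Gclc, 53.6% at Sod1 and 54.7% at Sod2. Neighbours in this order were often close, and the order was not the same in each replicate. Sod3 was behind Gclm in the pooled list and ahead of it in both replicates, and Cat led in replicate 5 but was behind cnc, Jafrac1 and Sod3 in replicate 6.

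The relaxed lists held 111 pooled regions in the windows of the 10 genes, 96 in replicate 5 and 102 in replicate 6. Per 10000 bp of window the members had a median of 5.73 pooled regions, from 3.59 to 10.3, and all protein-coding genes had a median of 2.68. Of the 111 pooled regions, 32 were within 1000 bp of an own TSS. By feature of the member, 46 were in introns, 11 in UTRs and 0 in coding sequence. A further 24 lay upstream and 30 downstream of the gene. In replicate 6, 3 summits lay in coding sequence of the member. Of all pooled summits, 4.26% lay in coding sequence of any gene, a wider measure than the coding sequence of the member alone. A replicate 5 summit matched 63 of the 111, a replicate 6 summit 74, and both matched 37 (33.3%). These shares were near those of all 30000 pooled regions, of which 59.9% matched in replicate 5, 60.2% in replicate 6 and 31.5% in both, beside 56.8% and 66.7% in the single replicates at the members. A q-value of at most 0.01 was reached by 18 of the 111 (16.2%), against 11.8% of all pooled regions. They lay at 7 of the 10 members, against 38.9% of all protein-coding genes, and within 1000 bp of a TSS at 5 of the 10, against 17.5%. The 3 members with no such pooled region were Sod1, Sod2 and Gclc. Within 100 bp of the 111 summits, TGTTTAC was found at 6, TGANNNNGC at 29, TGANTCA at 16, GAGAGAG at 9 and TATCGATA at 0. Over all 30000 pooled regions the shares were, in the same order, 5.93, 25.3, 5.14, 4.99 and 1.86%. Of the 111 summits, 36 lay in the body of another protein-coding gene (32.4%) and 27 within 1000 bp of the TSS of one (24.3%), against 41.5 and 43.7% of the pooled summits in the windows of all protein-coding genes, a summit being counted once for each window.

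Among 36 other genes of redox defence, drawn from the glutathione, thioredoxin, peroxiredoxin, iron storage, NADPH and stress response genes, 11 had an IDR summit in the window (30.6%, against 20.0% of all protein-coding genes) and 4 had one within 1000 bp of a TSS (11.1%, against 7.71%). The 4 were Sesn, Fer1HCH, Fer2LCH and GstT1. Sesn, a stress-induced sestrin gene, had the highest, with a signal of 213 (rank 80) at 226 bp upstream of the TSS, rank 86 in replicate 5 and rank 58 in replicate 6. Fer1HCH and Fer2LCH, which encode the ferritin subunits that store iron, shared a single peak with a signal of 100 (rank 556), 334 bp upstream of Fer1HCH and 236 bp downstream of the Fer2LCH TSS, with rank 605 in replicate 5 and 1607 in replicate 6. GstT1, a glutathione transferase gene, had a signal of 70.6 (rank 1348) at 99 bp upstream, with rank 1605 in replicate 5 and 2399 in replicate 6. The highest signal in a window was that of Zw, the glucose-6-phosphate dehydrogenase that supplies NADPH, with 325 (rank 24) more than 1000 bp from its TSSs. The ranks of Sesn stayed high in both replicates, while GstT1 was not among the first 1427 regions of either replicate. maf-S, the small Maf partner of cnc, had no IDR summit in its window, where the highest pooled signal was 62.9 (rank 1799), and the thioredoxin reductase gene Trxr1 had 57.8 (rank 2167).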

How the data were processed

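Regions came from 4 deposited narrowPeak lists on dm6: the IDR list, the pooled relaxed list and the relaxed lists of replicates 5 and 6. Per the deposited notes, each relaxed list was made from alignments and a control library, and the IDR list from comparing replicate and pooled lists. The names of the aligner and peak caller are not given in the sources used here. No control library was analysed here. The deposited signal per region is the authors' own value on an unstated scale and was used only to rank and describe regions. The deposited significance column holds −log10 of a q-value. The dm3 lists were not used. Read depth is unknown, and intervals cover counting error only.

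Genes and TSSs came from Ensembl release 115 without transposable elements. Sequence came from the RefSeq Release 6 genome, whose chromosome lengths covered all region ends on the 6 chromosomes. Older gene symbols were matched through RefSeq synonyms. Every named gene is a member, a gene sharing a member's highest or IDR region, the gene with the TSS nearest to an IDR summit, or a redox gene with an IDR summit within 1000 bp of a TSS, except CG14073, CG17625, unc-104, Zw, maf-S and Trxr1, which were named after their values were seen. The members, gene lists and sequences searched were chosen with earlier results of these data known, and no test was run on them, since there was 1 group and no p-value over samples can be had. The counting steps were tested on simulated data. Python 3.11.15, pandas 2.3.3 and SciPy 1.17.1 were used. Alternatives changed the distance, the overlap rule, the list, the threshold, the matching distance and the background genes.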

Additional observations from a re-analysis of the deposited data

How the results depend on the processing

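Of 42 recomputed counts and shares, 31 stayed within 1.5 times the value in the report or, for the background share, within its interval, and the highest rank of a member in its list was unchanged in 16 of 20 recomputations. With all pooled regions of q at most 0.01 in place of the IDR list, members with a peak numbered 7, peaks at members 18, members with a promoter peak 5 and other redox genes with a peak 22, while 38.9% of all protein-coding genes then had a peak and 17.5% a promoter peak. With 10000 bp around the gene, peaks at members numbered 10, and with 1000 bp, 5 of the other redox genes had one. With the first 713 regions of each replicate counted as high in place of 1427, 2 of the 6 peaks (33.3%) were high in both replicates, against 23.5% of all 1427. The background share was 21.7% for genes of like window length, 18.7% for all annotated genes, 10.6% with 1000 bp and 30.1% with 10000 bp. Leaving out replicate 5 or 6, that is, taking the high regions of the other replicate, gave 5 and 4 of the 10 members with a peak. It gave 11 and 12 of the 36 other redox genes, where 19.5 and 20.5% of all protein-coding genes had one. Peaks at members then numbered 7 and 7, and members with a promoter peak 4 and 3. With a promoter of 500 bp, Keap1 dropped out and 2 members had a promoter peak. The shares of all protein-coding genes for these last promoter counts were not computed, so the counts have no background. No paired analysis was possible because both replicates belong to a single group. The 6 peaks limit what any count of sequence matches can show, and the unknown read depth leaves the precision of each signal unknown.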
